A study of Mus musculus with 2 samples.

Results

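The sites described here are matches in mouse transcripts to the seeds of the microRNAs that come from the 5p arm of the miR-290 cluster. A site was taken when it was a 7mer or 8mer match to the seed, bases 2 to 8, of miR-290a-5p and miR-292a-5p (7mer GTTTGAG) or to that of miR-291a-5p (7mer CTTTGAT), and sites were made distinct by chromosome, strand, start and end. This gave 8563 sites, 4096 for the first seed and 4467 for the second, of 203061 distinct 7mer and 8mer sites of 50 listed seeds and 1619021 distinct sites of every kind in the table. A 7mer listed inside an 8mer of the same seed was set aside (93 and 213 sites), which left 4003 sites in 2785 genes and 4254 sites in 2826 genes. The 2 sets are kept apart throughout and are called by their 7mers, GTTTGAG sites and CTTTGAT sites.

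The data are Ago2 iCLIP (individual-nucleotide crosslinking and immunoprecipitation) libraries of mouse embryonic stem cells, which record RNA bound by Argonaute, here purified serially through FLAG and then HA. Tagged cells (TT-FHAgo2) carried doxycycline-inducible human Ago2 with a FLAG-HA tag, and untagged cells (TT-Ago2) carried doxycycline-inducible human Ago2 without it. In both, this human protein was the single Argonaute family member, both were clonal lines kept in 0.1 μg/mL doxycycline and raised to 2.5 μg/mL for 24 h, and there was 1 library of each, so no difference has a replicate check and intervals cover counting error only. Read depth corresponded to 789000 reads in the tagged library; the untagged library enters only through the authors' score of each enriched cluster, from which its reads were derived. All 9 embryonic stem cell markers were expressed, at 40.3 (Klf4) to 1655 FPKM (Dppa5a). Of the marker symbols of other lineages, the table held 4 of 7 for fibroblasts and 4 of 8 for primitive endoderm. It held 6 of 8 for trophectoderm and 6 of 9 for neural cells and mesoderm. Among the last, Map2, not in the table, and Mtap2, in the table, name the same gene. The highest markers of other lineages were Vim at 45 FPKM and Tfap2c at 13.9 FPKM, and Col1a1, Gata6, Cdx2 and T were not in the table.

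The miR-290 cluster is an abundant microRNA locus of mouse embryonic stem cells. Each hairpin yields a 5p and a 3p strand, and work on the cluster has centred on the 3p strands, several of which, miR-291a-3p among them, share the seed of the miR-302 family and are known for promoting the rapid cell cycle of these cells. Argonaute holds a microRNA so that its seed is exposed for pairing, and an A opposite the first base of the microRNA strengthens the site, which makes a 7mer into an 8mer.

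The mature sequences below are from RefSeq (GRCm38.p6), all on the plus strand of chromosome 7, and are shown because their seeds define the sites and because single bases in the seed separate the members of the cluster. Capitals mark bases 2 to 8.
mmu-miR-290a-5p: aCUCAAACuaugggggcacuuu
mmu-miR-292a-5p: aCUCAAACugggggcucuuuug
mmu-miR-293-5p: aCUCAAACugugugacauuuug
mmu-miR-294-5p: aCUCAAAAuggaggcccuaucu
mmu-miR-295-5p: aCUCAAAUguggggcacacuuc
mmu-miR-291a-5p: cAUCAAAGuggaggcccucucu
mmu-miR-291b-5p: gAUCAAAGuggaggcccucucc
mmu-miR-291a-3p: aAAGUGCUuccacuuugugugc
The first seed is carried by 3 mature microRNAs in RefSeq, miR-290a-5p, miR-292a-5p and miR-293-5p, and the second by 2, miR-291a-5p and miR-291b-5p. Reads at a site cannot be assigned to one of the microRNAs that share its seed. The strands miR-294-5p and miR-295-5p differ from the first seed only at base 8, and their sites, the 8mers TTTTGAGA and ATTTGAGA, are in the table too, among the 8mers that extend none of the 50 listed 7mers. The remaining 8mers of that kind, 724083 sites that overlap no listed match, serve as the control. Before sites overlapping a listed match were removed, there were 966 different 8mers of that kind, TTTTGAGA and ATTTGAGA included. Of these, 824 match the seed of some RefSeq mature mouse microRNA. Against the control sites of the other 142 alone, the ratios of observed to expected sites given below were 1.76 and 1.82.

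Sites of the 5p arm held Ago2 reads more often than control 8mers and about as often as the other listed seeds. For the GTTTGAG seed 541 of 4003 sites had at least 1 read (13.5%, exact Clopper-Pearson 95% interval 12.5 to 14.6), and for the CTTTGAT seed 588 of 4254 (13.8%, 12.8 to 14.9), against 7.21% of control 8mers and 12.8% of 7mers and 8mers of the other listed seeds. In 3′ UTRs the share was 20% for the GTTTGAG seed (344 of 1718 sites) and 22.8% for the CTTTGAT seed (391 of 1715), against 11.5% of control sites and 20.1% of other listed sites. In coding sequence it was 18.1% (169 of 933) and 16.3% (180 of 1107), against 8.46% of control sites and 13% of other listed sites. The coding intervals were 15.7 to 20.7% and 14.1 to 18.6%, against 12.7 to 13.3% for the other listed seeds pooled. The 3p seeds of the same cluster had higher coding shares, 44.6% (miR-291a-3p), 43.1% (miR-290a-3p) and 34.5% (miR-293-3p). A difference between regions was not tested.

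Support varied with region and expression at control sites too, so the supported sites were also divided by the number expected from control 8mers of the same region and the same 0.5 log2 step of FPKM, the authors' expression value of the transcript. Observed over expected was 1.75 for the GTTTGAG seed (541 against 309 sites, 95% interval 1.61 to 1.89) and 1.82 for the CTTTGAT seed (588 against 324, 1.68 to 1.96). The other listed seeds together had 1.66. The 3p strands of the same cluster had 4.37 (miR-291a-3p), 4.48 (miR-290a-3p) and 3.7 (miR-293-3p). Among the 50 listed 7mers ordered by this ratio in 3′ UTRs, CTTTGAT was 12 with 1.89 and GTTTGAG 17 with 1.69. The neighbours in that order had 1.98 and 1.86 beside CTTTGAT and 1.71 and 1.65 beside GTTTGAG, within the interval of each.

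**Figure D1:**
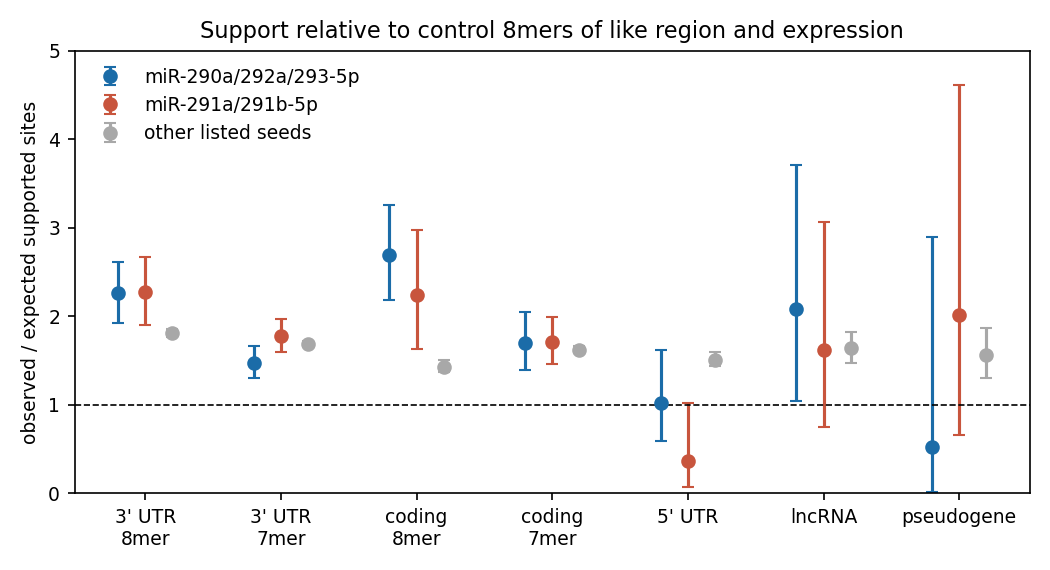
Supported sites over the number expected from control 8mers of like region and expression (y axis, ratio), by region and match length, for both 5p seeds and all other listed seeds. Points are ratios, bars exact 95% intervals for counting error, and the dashed line marks 1. Coding 8mers of both seeds lie above those of the other listed seeds pooled, and the 5′ UTR intervals of both include 1.

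Sites outside the 3′ UTR and coding sequence held reads less often. In 5′ UTRs 16 of 193 sites of the GTTTGAG seed had a read (observed over expected 1.02, 0.594 to 1.62), and 3 of 145 of the CTTTGAT seed (0.358, 0.0741 to 1.02), while other listed seeds had 1.51 there. Enriched clusters, described below, gave another picture for GTTTGAG, with 4 of these 5′ UTR sites in a cluster where 0.485 were expected (ratio 8.24, 2.26 to 20.8), and 2.72 for other listed seeds. Of the 4, the cluster list places that of Sall1 in an intron. The clusters of Slmap and Zfp763 held 8 and 7 tagged reads against 1 untagged read each, and that of Mrps31 held 9 and 0. In lncRNAs, 11 of 1016 sites (1.08%) and 9 of 1109 sites (0.812%) had a read, against 0.505% of control and 0.836% of other listed sites, and the ratios to the expected number were 2.08 (1.04 to 3.71) and 1.62 (0.743 to 3.07). Pseudogenes gave 1 of 143 (0.699%) and 5 of 178 (2.81%), against 1.31% of control and 2.08% of other listed sites.

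Match length ordered the support of both seeds. In 3′ UTRs the 8mer GTTTGAGA had reads at 26.7% of sites (127 of 476, 22.8 to 30.9), the 7mer without the A at 17.5% (217 of 1242, 15.4 to 19.7) and the hexamer TTTGAG alone at 16.3% (1074 of 6578, 15.4 to 17.2). For the CTTTGAT seed the 8mer CTTTGATA had 27.9% (101 of 362, 23.3 to 32.8), the 7mer 21.4% (290 of 1353, 19.3 to 23.7) and the hexamer TTTGAT 17.7% (1023 of 5791, 16.7 to 18.7). The intervals of 8mers and 7mers did not overlap for the GTTTGAG seed, those of 7mers and hexamers did. For the CTTTGAT seed the 8mer and 7mer intervals overlapped and the 7mer and hexamer intervals were apart. In coding sequence the 8mer and 7mer shares were 24.7% and 14.8% for the GTTTGAG seed and 20.3% and 15.5% for the CTTTGAT seed. The other listed seeds, pooled, had 20.9% for 8mers and 19.7% for 7mers in 3′ UTRs and 11.9% and 13.4% in coding sequence. Single seeds among them had a step too, such as miR-291a-3p with 61.6% and 43.2% and miR-293-3p with 51.4% and 42.5% in 3′ UTRs.

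GTTTGAGA, TTTTGAGA and ATTTGAGA, 8mers of the 5p arm that differ only at the base opposite position 8 of the microRNA, differed in support. Each matches different microRNAs, so the base cannot be told apart from the amount of each microRNA, which was not examined. In 3′ UTRs GTTTGAGA had 26.7% of sites with a read and an observed over expected ratio of 2.26 (1.92 to 2.61). TTTTGAGA, the match of miR-294-5p, had 15.2% (175 of 1148) and 1.24 (1.07 to 1.42), and ATTTGAGA, the match of miR-295-5p, had 13.4% (68 of 508) and 1.12 (0.886 to 1.4). In coding sequence the ratios were 2.69 for GTTTGAGA, 1.56 for TTTTGAGA and 0.828 for ATTTGAGA. Both variants contain the hexamer TTTGAG, so they are also counted among the hexamers above.

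**Figure D2:**
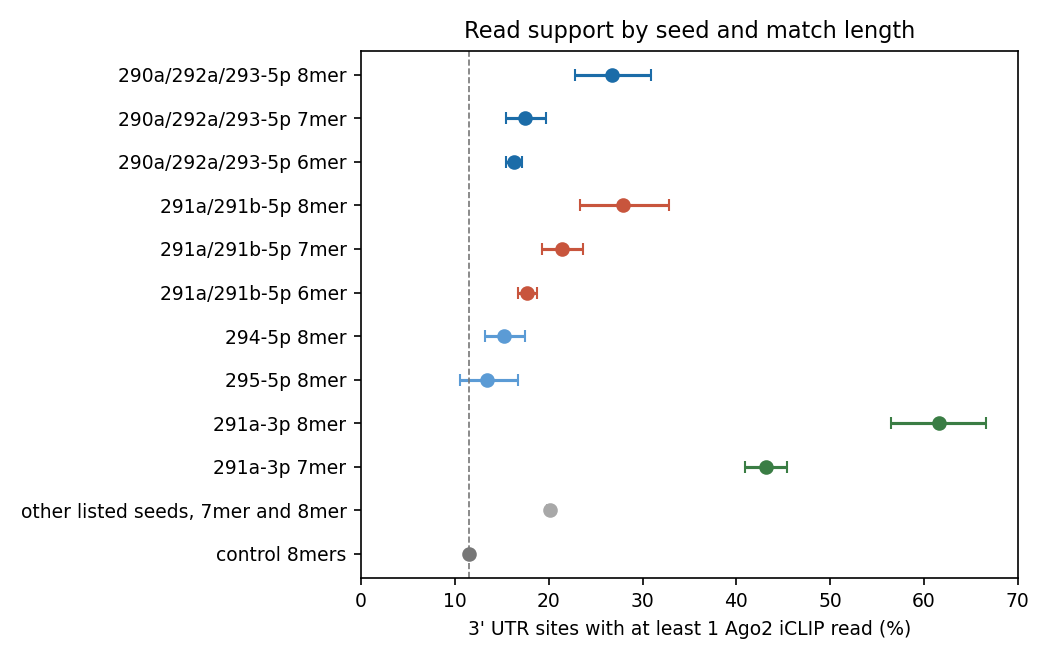
Share of 3′ UTR sites with at least 1 Ago2 iCLIP read (x axis, percent) for each seed and match length, from the tagged library. Points are shares, bars exact 95% intervals, and the dashed line is the control share of 11.5%; 8mers of the GTTTGAG and CTTTGAT seeds reach 26.7% and 27.9%, while 8mers of miR-294-5p and miR-295-5p stay at 15.2% and 13.4%.

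Support was higher in more abundant transcripts, as it was for the control. Of 3′ UTR sites in transcripts of 0.1 to 1 FPKM, 7.78% for the GTTTGAG seed and 10.1% for the CTTTGAT seed had a read, against 4.24% of control sites. At 10 to 30 FPKM the shares were 27.1% and 36.3%, against 18.4%. At 30 to 100 FPKM they were 43.1% and 40.8%, against 23.4%. Above 100 FPKM, where the seeds had 42 and 41 sites, they were 31% (17.6 to 47.1) and 51.2% (35.1 to 67.1), against 29.2%; there the interval of the GTTTGAG seed spanned the control share.

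**Figure D3:**
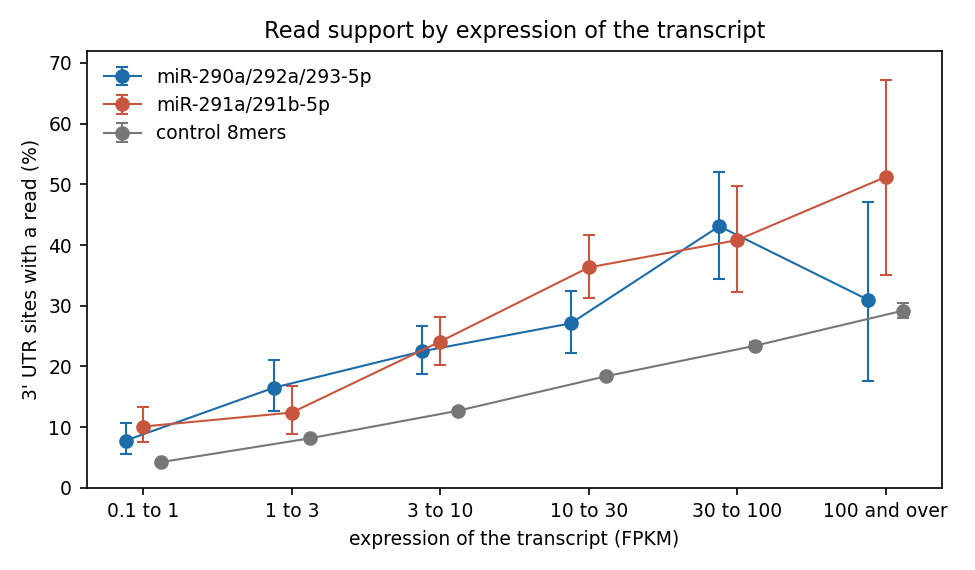
Share of 3′ UTR sites with a read (y axis, percent) by FPKM of the transcript (x axis, 6 classes) for both 5p seeds and the control 8mers. Points are shares with exact 95% intervals; both seeds lie above the control up to 100 FPKM, and above that the GTTTGAG interval includes it.

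Reads were concentrated at few sites. The GTTTGAG sites held 1790 reads in all, 3462 sites had none, 250 had 2 or more, and 39 had 10 or more. The CTTTGAT sites held 1681 reads, 3666 had none and 33 had 10 or more. The 10 sites with most reads held 21.5% and 21.1% of the reads of their seed.

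Among the GTTTGAG sites, an 8mer in the 3′ UTR of Gpt2, a mitochondrial alanine aminotransferase, held the most reads, 112 (142 rpm; mm9 chr8:88049664-88049671, plus strand). It was followed by a 3′ UTR 8mer of Pptc7, a mitochondrial protein phosphatase, with 44 reads (chr5:122771015-122771022, plus strand). A second, 7mer site lay further along the Pptc7 3′ UTR and held 4 reads. Sall1, a zinc finger transcription factor, had 42 reads at a 7mer that the site table places in the 5′ UTR and the cluster list in an intron (chr8:91566332-91566338, minus strand). Trim37, a ubiquitin ligase, had 38 reads at a 3′ UTR 7mer, and Adss, an adenylosuccinate synthetase of purine synthesis, had 27 at another. Coding 8mers led in Dcakd, with 30 reads, and in Fkbp4, a co-chaperone of Hsp90, with 27. Gabarap, of the autophagy machinery, held 22 reads at 1 site, a 3′ UTR 7mer. These transcripts ranged from 9.02 FPKM (Pptc7) to 401 FPKM (Fkbp4).

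Among the CTTTGAT sites, a 3′ UTR 7mer of Unk, which encodes a zinc finger protein that binds RNA, had 90 reads (chr11:115921960-115921966, plus strand). It lay in a transcript of 0.681 FPKM with a phastCons score, the conservation value from 0 to 1 that the authors attached, of 0.0003. Strap had 48 reads at a 3′ UTR 7mer and Ubxn1, a cofactor of the p97 ATPase, had 34 at a 3′ UTR 8mer. Ahctf1, a nucleoporin, Slc19a2, a thiamine transporter, and Vps26a, a retromer subunit, each had 25 reads at a 3′ UTR site. G3bp1, a stress granule protein, and Rc3h2, an RNA-binding ubiquitin ligase, each had 24 at a 3′ UTR site. Mafg, a small Maf transcription factor, had 21 reads at one 3′ UTR 8mer with a phastCons score of 0.9729, and 1 read at a second with a score of 0.0006.

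Both seeds were supported in 63 genes, not always on the same isoform, 12.2% of the 517 genes with a supported GTTTGAG site and 11.3% of the 559 genes with a supported CTTTGAT site. Of all genes in the table, 3.39% had a supported GTTTGAG site and 3.66% a supported CTTTGAT site. Sites of both seeds, supported or not, lay in 903 genes (32.4% and 32% of the genes with a site), and of these 18.6% had a supported GTTTGAG site and 20.6% a supported CTTTGAT site. Med1, a subunit of the Mediator complex, had the most reads over both. Its 2 coding sites for the GTTTGAG seed, close together, held 13 and 21 reads, and 1 of its 3 CTTTGAT sites, a 3′ UTR 7mer, held 38 (chr11:98015185-98015191, minus strand). In the 3′ UTR of Ahctf1, the GTTTGAG site held 7 reads and the CTTTGAT site held 25. Sf3b1, a core splicing factor, had 12 and 11 reads. Lamp2, a lysosomal membrane protein, had 18 and 3, Fam83d 3 and 17, Celf1 9 and 5, and Clock, of the circadian oscillator, 11 and 1.

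Several genes had more than 1 supported site for one seed. Prpf8, a central spliceosome protein, had reads at all 3 of its coding CTTTGAT sites (10, 2 and 1), and Pprc1 likewise (3, 1 and 1); the last 2 Prpf8 sites are almost adjacent and can share reads. Kdm5a, a histone demethylase, had 4, 3 and 0 reads at 3 3′ UTR GTTTGAG sites. Rad21, a cohesin subunit, had 5 reads at a coding 8mer and 2 at a 3′ UTR 7mer. Most such genes held few reads per site, and Huwe1 had 1 read at each of 2 of its 5 CTTTGAT sites. Sites in 1 transcript share its expression and are not independent.

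Some matches in abundant transcripts held no read. The 3′ UTR 8mers of highest expression without any read were, for the GTTTGAG seed, in Rsl1d1 (173 FPKM), Lap3 (158 FPKM), Bzw1 (147 FPKM) and Srsf3, a splicing factor (117 FPKM). For the CTTTGAT seed they were in Psma2, a proteasome subunit, Kpnb1, importin beta (199 FPKM), Nhp2l1 (169 FPKM) and Hnrnpa2b1 (152 FPKM). The sites in Srsf3, Kpnb1 and Hnrnpa2b1 each had a phastCons score of 1.0. A count of 0 allows up to 3 reads, or 3.8 rpm, so binding below that was not detectable at this depth. Ubr7 shows both outcomes, with 12 reads at one 3′ UTR 8mer of the GTTTGAG seed (chr12:104015054-104015061) and none at another (chr12:104014222-104014229).

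The authors' list of clusters enriched in the tagged over the untagged library gives a second readout. Of the sites, 74 for the GTTTGAG seed (1.85%, 1.45 to 2.32) and 59 for the CTTTGAT seed (1.39%, 1.06 to 1.79) were overlapped by an enriched cluster, against 0.32% of control 8mers and 1.37% of other listed sites. The ratio to the number expected from control sites was 5.06 (3.98 to 6.34) for the GTTTGAG seed and 3.95 (3.01 to 5.09) for the CTTTGAT seed, against 4.06 for the other listed seeds. In 3′ UTRs, 5.88% of GTTTGAG 8mers and 2.09% of 7mers lay in a cluster. The CTTTGAT seed showed no such step, with 2.49% of 8mers (9 of 362) and 2.81% of 7mers (38 of 1353), against 0.687% of control sites and 2.89% of other listed sites in 3′ UTRs. Of the 74 GTTTGAG cluster sites 38 were 8mers, and of the 59 CTTTGAT cluster sites 12 were. Without sites that have another listed 7mer or 8mer within 50 nt, 1.5% and 0.91% of the sites lay in a cluster.

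Untagged reads in these clusters were few. The 74 clusters over GTTTGAG sites held 967 tagged and 14 untagged reads, with none untagged in 62 (83.8%). The 59 over CTTTGAT sites held 778 tagged and 20 untagged reads, with none in 46 (78%). Over all 6017 clusters used, 85.7% had no untagged read, so these clusters did not stand apart from the list. Every cluster was kept by the authors because tagged exceeded untagged reads, and their p compares the reads of both libraries, not the conditions.

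The Gpt2 cluster held 86 tagged and 2 untagged reads (authors' deposited table, binomial p 1.2656e-23). The raw counts give a 43-fold excess with a counting interval of 11.5 to 361. As 2 is under the floor of 3 reads per cluster, the excess over that floor was at least 28.7-fold. The Unk cluster held 81 and 0 reads, at least 27-fold more than the floor of 3 reads per cluster, and the Sall1 cluster 40 and 0, at least 13.3-fold. The Pptc7 8mer lay in a cluster of 39 and 0 reads, Strap in one of 37 and 0, Med1 in one of 35 and 1, and Vps26a in one of 22 and 4, a 5.5-fold excess (1.87 to 22). The clusters of Trim37 and Dcakd held 30 and 0 and 29 and 2 reads. The coding sites of Med1 and Fkbp4 lay only in clusters wider than 200 nt, which were left out. The Aebp2 site, an 8mer in the 3′ UTR of a Polycomb cofactor, held 12 reads at the edge of a cluster of 94 tagged and 1 untagged reads, the highest over sites of either seed; the position with most crosslink events was 72 nt upstream of the match. In 35 of the 74 GTTTGAG cluster sites and 31 of the 59 CTTTGAT cluster sites the reads at the site exceeded those of its cluster, in 33 and 24 they were equal, and in 6 and 4 they were lower; how the 2 counts differ was not tested.

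**Figure D4:**
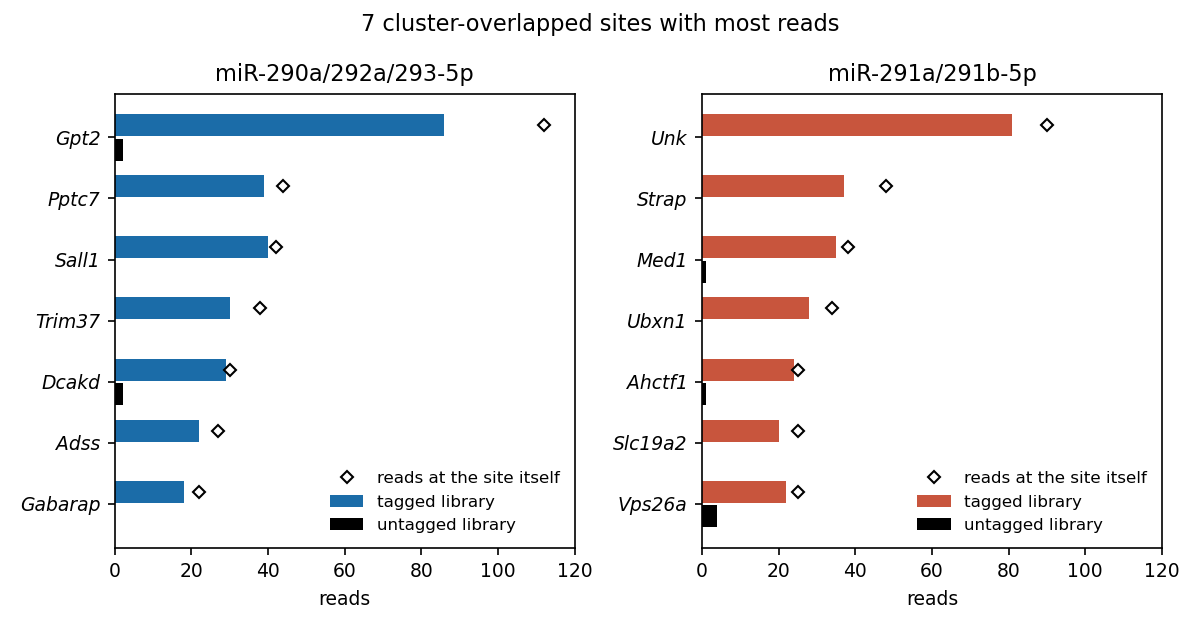
Reads (x axis) of the tagged library (coloured bars) and the untagged library (black bars) in the authors' enriched clusters over the 7 cluster-overlapped sites with most reads for each seed, by gene. Diamonds are reads at the site itself; Gpt2 reaches 112 and Unk 90, and the highest untagged value is 4, at Vps26a.

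Crosslinked nucleotides lay close to the matches, at a different place for each seed. The authors give the position with most crosslink events for 61 of the 74 GTTTGAG cluster sites, and the nearest such position fell exactly on the 5′ base of the match in 23 of them (37.7%), 9 of 30 on the plus strand and 14 of 31 on the minus strand. For the CTTTGAT seed it was on that base in 1 of 46 sites, 1 nt upstream in 6 and 2 nt upstream in 5. Where a cluster had a single such position, it was on the 5′ base in 18 of 46 GTTTGAG sites and in 0 of 34 CTTTGAT sites, and 1 or 2 nt upstream in 4 and 9. Within the 7 bases of the match lay 39.3% of GTTTGAG positions, 13% of CTTTGAT positions, 24% of miR-291a-3p positions (80 of 334) and 6% of control positions (112 of 1867). The offset at which the authors count a crosslink may shift all positions by 1 nt, alike for both seeds. Base composition around the sites differs between seeds, and its part was not tested.

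**Figure D5:**
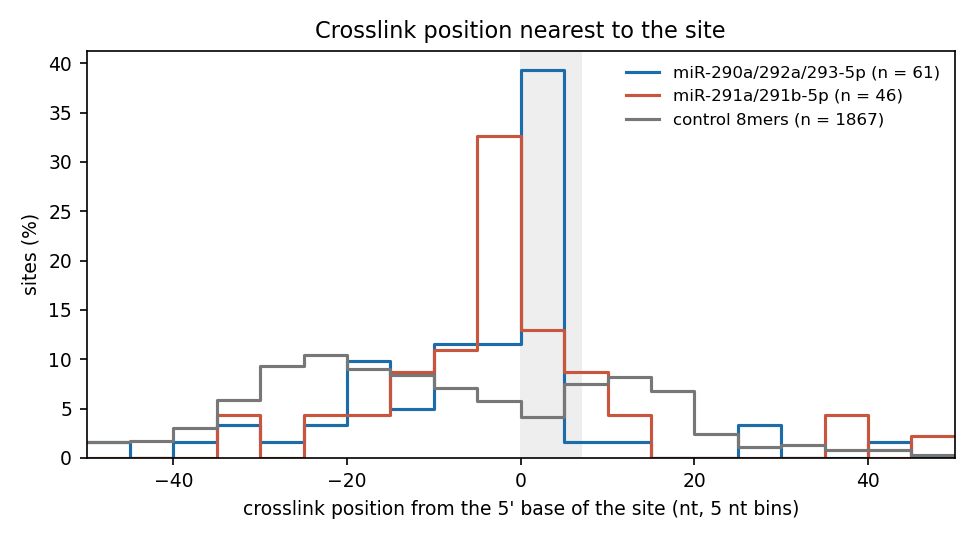
Distance of the nearest position with most crosslink events from the 5′ base of the site (x axis, nt, negative upstream). The y axis is the percent of cluster-overlapped sites with such a position, 61 for GTTTGAG and 46 for CTTTGAT, in 5 nt bins. The grey band marks the 7 bases of the match; 39.3% of GTTTGAG sites fall in the first bin from 0, and 32.6% of CTTTGAT sites in the bin just upstream.

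Other listed seeds lay near many of the sites. In 3′ UTRs, GTTTGAG sites with another listed 7mer or 8mer within 50 nt had reads in 24.9% (149 of 598), and those without in 17.4% (195 of 1120). For CTTTGAT sites these shares were 24.8% (148 of 597) and 21.7% (243 of 1118). Sites that overlap another listed match in 3′ UTRs had reads in 40.7% (22 of 54, 27.6 to 55) for the CTTTGAT seed and in 2 of 17 for the GTTTGAG seed. Reads at such places cannot be told apart between the microRNAs. The leading sites of Gpt2, Trim37, Adss, Fkbp4, Gabarap, Unk, Strap, G3bp1 and Rc3h2 had another listed match within 50 nt. At Adss it was TTTGCAC (3′ UTR ratio 3.31), and at Strap GCGGCAC (4.08) was among them. The 3′ UTR Med1 site with 38 reads had such neighbours too, while the leading sites of Pptc7, Sall1, Dcakd, Ubxn1 and Mafg had none.

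The commonest overlap of the CTTTGAT seed is shown here because the match to the miR-17 family seed, GCACTTT, the 7mer with the highest ratio of all 50, ends in the bases with which CTTTGAT begins. Capitals mark the 5p match.
GCACTTT overlap: gcaCTTTGAT
AGCACTT overlap: agcaCTTTGAT
GGCACTT overlap: ggcaCTTTGAT
GTGCCTT overlap: gtgcCTTTGAT
The first occurred at 46 sites, of which 22 had reads (47.8%, 32.9 to 63.1), 175 in all, where 4.23 were expected from the control. The other overlaps with AGCACTT and GGCACTT each contain the first and overlap matches of miR-291a-3p and miR-290a-3p; they occurred at 17 and 10 sites, with reads at 7 and 4. The overlap with GTGCCTT had 14 sites and no read. The Ahctf1, Slc19a2 and Vps26a CTTTGAT sites above, the 3′ UTR Sf3b1 site with 11 reads and an E2f1 site with 8 reads are of the first kind. Without sites that overlap another listed match, the CTTTGAT ratio of observed to expected was 1.76 in place of 1.82.

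Some matches recurred at a fixed distance from another match, and the commonest such GTTTGAG sites held no reads. In 67 GTTTGAG sites the 7mer TTGGGAG began 29 nt upstream, and in 66 the 7mer AGCACTT began 34 nt upstream; 56 sites had both. None of the 77 sites with either had a read, where a count of 3.94 supported sites was expected. At the floor of 3 counts, a count of 0 allows up to 3.9% of the 77 sites. They lay mainly in lncRNAs (45) and 3′ UTRs (30), 73 were 7mers, and their median phastCons score was 0. Some other spacings of GTTTGAG sites did have reads, at 2 of 17 sites with AGCACTT 36 nt upstream (0.718 expected). Reads were also at 2 of 22 sites with GAGCCTG 4 nt downstream, where the matches overlap (1.56 expected). CAGGTGA 7 nt downstream, TGCTGCT 55 nt upstream and TTTGCAC 35 nt upstream each recurred at 15 sites. None of these sites had a read, but only 0.21, 0.161 and 0.191 were expected, too few to tell. For the CTTTGAT seed, TGCACTG began 35 nt upstream of 24 sites and AGCACTT 10 nt downstream of 18; none had a read, but only 0.351 and 0.774 were expected, too few to tell. Whether any of these sites belong to a repeated element was not tested.

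Sites with reads were more often conserved than those without, as in the control. Of supported 3′ UTR sites, 22.7% for the GTTTGAG seed and 35% for the CTTTGAT seed had a phastCons score of at least 0.9, and of sites without a read 12.8% and 21.4%; in the control it was 27.4% and 16.4%. Sites at or above 0.9 had reads in 30.7% (78 of 254) and 32.6% (137 of 420), against 17.8% of control sites of that class. Sites under 0.1 had reads in 17.2% and 18.4%, against 9.48%. Conserved sites lay in more abundant transcripts (median 6.23 and 6.31 FPKM at 0.9 and above, 3.47 and 3.45 FPKM under 0.1). Among transcripts of at least 10 FPKM, 25% of supported and 18.4% of other GTTTGAG sites, and 36.9% and 27% of CTTTGAT sites, reached 0.9.

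Genes with 5p sites often had 3p sites of the same cluster. Of 1489 genes with a GTTTGAG site in the 3′ UTR, 38.2% also had a miR-291a-3p, miR-290a-3p or miR-293-3p 7mer or 8mer there, and of 1462 genes with a CTTTGAT site 37.3%, against 21.3% of 12090 genes with any listed 3′ UTR match. Among genes with a supported 5p site the shares were 40.9% and 40.4%. Longer 3′ UTRs hold more matches of any kind, and their part was not tested.

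Gene lists chosen for stem cell biology were read against all 15271 genes of the table, of which 30.8% had a site of either seed and 6.63% a supported one. Of 24 microRNA pathway genes 14 had a site and 8 a read. Cnot6, which encodes a deadenylase, had 18 reads over a 3′ UTR 7mer of the GTTTGAG kind. The position with most crosslink events in the Cnot6 cluster was 62 nt upstream of that match. Tnrc6a, whose product links Argonaute to deadenylases, had 15 reads over an 8mer. Trim71, a stem cell RNA-binding protein and microRNA target, had 5 and 3 reads over the seeds, and the helicase gene Ddx6 had 5. Of 29 chromatin genes 17 had a site and 7 a read, among them Aebp2 and Tet1, a DNA demethylase with 11 reads at a coding CTTTGAT 7mer, each with 12 reads in all, and Dnmt3l, a DNA methylation cofactor, with 6.

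Of 27 cell cycle genes 9 had a site and 3 a read, led by E2f1, a transcription factor of S phase entry, with 12 reads over 2 CTTTGAT sites. Of 22 apoptosis genes 6 had a site and 3 a read. Mdm2, the ubiquitin ligase of p53, had 8 reads at CTTTGAT sites, and Bcl2l11, which encodes the pro-apoptotic Bim, had 4 and 3 over the seeds. Of 43 signalling genes 18 had a site and 9 a read, up to 5 in Gab1 and 3 in Socs3, an inhibitor of LIF signalling. Of 25 pluripotency factors 10 had a site and 4 a read, up to 5 in Tfcp2l1. Sites in Esrrb (247 FPKM), Klf4 (40.3 FPKM) and Dppa5a (1655 FPKM) held no read. Of 13 NF-kappa-B genes 4 had a site and 1 a read. The shares with a site or a read among genes of a list depend on the lengths and expression of its transcripts, and their part was not tested.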

How the data were processed

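Seed matches and iCLIP clusters of the tagged library were analysed; per the submitters' processing notes the tools included TopHat and Bowtie, with builds NCBIM37 and mm9, while no source used here names the cluster caller. Site coverage was deposited in rpm; 1 read is worth 1.27 rpm, and dividing by it gave whole reads for 1641948 entries (100%, tolerance 0.001). With 1 library per group no count test was run. Expression is FPKM and coverage also a log2 value, both deposited by the authors. PhastCons is a score per the file headers. Peak height is a signal in reads per the file headers. The deposited cluster score is other text joining tagged reads, log2 enrichment and p, and untagged reads were derived from that log2, matched within 0.005 in all 6211 clusters; how they were scaled is unknown. The 194 clusters wider than 200 nt were left out.

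Sites repeated across isoforms were kept once, at the highest FPKM. Shares carry exact Clopper-Pearson 95% intervals (scipy 1.17.1); reads lack a stated molecular identifier, so intervals and floors of 3 reads cover counting error only. The calculation of observed over expected was run on simulated support drawn from the control shares themselves. This checks the arithmetic only, not whether the control is a fair one. Named genes were the 10 with most reads per seed, the 10 cluster sites with most reads, genes with 3 or more sites and reads at 2 or more, 10 genes supported for both seeds, 5 highly expressed 8mers without reads, and up to 4 per list; Ubr7, Esrrb, Klf4 and Dppa5a were singled out after their values were seen. Members and lists were chosen with earlier results of these data known. One gene that the rule names is not reported here.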

Additional observations from a re-analysis of the deposited data

How the results depend on the processing

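No paired analysis was possible because each group has 1 library. Of 76 recalculations over the 6 main values, 42 stayed within the interval of the main value. With at least 2 or 5 reads in place of 1, the supported share was 6.25% and 2.2% for the GTTTGAG seed and 5.71% and 1.74% for the CTTTGAT seed, and observed over expected was 2.7 and 4.6, and 2.55 and 3.84. Shares by subset were 20% and 22.8% (3′ UTR), 18.1% and 16.3% (coding), 20.1% and 20.5% (FPKM of at least 1), 29.2% and 32.3% (at least 10), 18.7% and 17.2% (8mers), 11.4% for GTTTGAG 7mers and 12.2% for its sites without another listed match within 50 nt. Ratios that moved were 2.4 and 2.19 (8mers), 1.98 and 2.06 (control without listed matches within 50 nt), 1.05 and 1.09 (other listed seeds as control), and for the GTTTGAG seed 2.04 (coding), 1.48 (7mers) and 1.57 (none within 50 nt). Cluster shares were 1.17% and 0.893% at the authors' p under 0.01, 3.14% and 2.74% in 3′ UTRs, and 0.91% for the CTTTGAT seed without neighbours. Keeping nested 7mers, control 8mers that extend no RefSeq seed match, and leaving out the sites at fixed spacing were chosen after seeing the data and stayed within the intervals. Most supported sites held 1 read, so depth limits single sites. The cause of each shift beyond its construction was not tested.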
